A study of Mus musculus with 12 samples.

Results

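The 33 genes described here control programmed cell death or belong to the p53 stress response. They were listed by name, and each was read from the probe annotated to its symbol with the highest mean raw signal over all 12 arrays. Of the 33 genes, 31 had such a probe, out of 19057 genes with a probe in all; no array value is given here for Bax and Trp53. A probe was tested if 3 or more of the 12 arrays gave it a detection p below 0.05, the fraction of negative controls that reach its brightness. By this filter 29 of the 31 genes were tested among 11888 genes. The death receptor Fas and the BH3-only gene Pmaip1 (NOXA) were each detected on 2 of 12 arrays and were not tested.

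The arrays compared wild-type (WT) mouse embryos with embryos in which Bmp4 was deleted in the optic vesicle (KO), at E10.5, in mid-gestation, all on a mixed C57BL6 and FVB background. From frozen 10 µm sections, laser microdissection took either the distal optic vesicle, the prospective retina, or the surface ectoderm that forms the lens, and 15 ng of RNA was amplified per array. The 4 groups are WT vesicle, KO vesicle, WT ectoderm and KO ectoderm, with 3 arrays each. The Cre line that drives the deletion is not given in the sources used here, and the deletion is described for the vesicle, so the KO ectoderm is the ectoderm of the same embryos rather than a deleted tissue. The design names 3 embryos per genotype and pooled RNA, and leaves unsettled if a group's 3 arrays come from different embryos, so p-values measure the spread between these arrays, which may be technical.

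Cells die by the mitochondrial route when pore-forming proteins of the BCL2 family open the outer mitochondrial membrane and release cytochrome c, which builds the apoptosome and activates caspases. Anti-apoptotic relatives such as BCL2 hold those proteins in check, BH3-only proteins release them, and p53 raises the transcription of several of these genes under stress. BMP4 is a secreted growth factor that acts through SMAD transcription factors; in chick it has been linked to cell death in the developing retina, and in mouse it is needed in the optic vesicle for lens formation.

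Between 45.0% and 46.7% of probes were detected per array, and the correlation across genes between replicate arrays was 0.928 to 0.963. Values below are normalised log2 intensities, and differences are on the log2 scale. Bmp4 fell in KO vesicle, from 8.26 ± 0.04 to 4.59 ± 0.51 (SD, n = 3; adjusted p = 0.0001 by limma). Its second probe gave -1.12 there and did not pass (adjusted p = 0.46). In ectoderm its 2 probes differed in direction (-1.10 and 1.23) and neither passed. Of the tissue markers, the epithelial gene Cdh1 was at 8.09 in WT vesicle and 12.52 in WT ectoderm. Retina and eye field markers were mixed between the WT tissues. Lhx2 (8.46 in vesicle and 4.83 in ectoderm), Fgf15 (9.68 and 5.02) and Rax were higher in vesicle. Pax6 (11.01 and 11.55) and Six3 (8.09 and 8.83), also listed as lens placode markers, were higher in ectoderm. Sox2 was near level (10.49 and 10.36), and the retinal gene Six6 was detected on no array. The list's summed levels in the WT tissues, given below, overlapped. Markers of other cell types also moved with genotype. The summed linear level of 11 mesenchyme and neural crest markers was 176 to 286 in WT vesicle, 731 to 924 in KO vesicle, 1806 to 1939 in WT ectoderm and 3673 to 3696 in KO ectoderm; of 9 tested, 2 rose in KO vesicle, and 5 rose and 1 fell in KO ectoderm. The 9 endothelial markers summed to 66.1 to 143 in WT ectoderm and 362 to 468 in KO ectoderm, where 4 of 7 tested rose, with Tie1 detected on no array. Of 8 tested lens placode markers 6 fell in KO ectoderm, where the list's summed level went from 4926 to 6090 down to 1776 to 2140. Also in KO ectoderm, 3 of 6 pigment epithelium, 4 of 10 surface ectoderm, 2 of 3 platelet and 1 of 6 erythroid markers tested rose, and 2 of 6 retina and eye field markers fell. Summed levels in WT and KO ectoderm overlapped for pigment epithelium (8726 to 9326 and 7763 to 8948) and surface ectoderm (8167 to 9787 and 7702 to 9817). They also overlapped for platelet markers (286 to 544 and 402 to 897). Such linear sums follow the brightest gene of each list. In WT ectoderm these were Gja1 (13.03 and 12.87 in KO), Cdh1 (12.52 and 11.82) and Gp9 (8.7 and 7.97). Below them Dct (4.51 and 7.27), Pmel (4.46 and 6.11) and Otx2 (6.08 and 8.33) had higher means in KO. So did Wnt6 (4.58 and 8.41), Perp (5.86 and 9.13) and Ppbp (4.34 and 7.07). Mitf, Tyrp1, Epcam, Krt5, Krt8 and Itga2b had lower means. Overlapping sums therefore do not show that these markers were unchanged. Erythroid sums were higher in KO ectoderm (9768 to 10465 and 11078 to 12282), and retina and eye field sums lower (4421 to 5256 and 1995 to 2523). The genes of the retina and eye field list did not move together. In WT and KO ectoderm, Sox2 (10.36 and 8.32), Pax6 (11.55 and 10.58), Six3 (8.83 and 8.11) and Fgf15 (5.02 and 4.76) had lower means in KO. Lhx2 (4.83 and 6.25) and Rax (5.06 and 6.45) had higher means in KO. In KO vesicle 5 of 6 pigment epithelium markers and 4 of 6 tested erythroid markers rose, with summed levels of 11722 to 11898 against 5657 to 6216, and of 4694 to 4999 against 1955 to 2061. Retina and eye field markers summed to 3285 to 3886 in KO vesicle against 5194 to 5713 in WT, with 2 of 6 tested falling. Surface ectoderm markers summed to 931 to 1096 against 368 to 507, with 1 of 10 rising, and 1 of 3 platelet markers rose. No macrophage marker of 3 tested passed between genotypes, and C1qb and Fcer1g were detected on no array. The arrays lay on 2 slides, each with 1 or 2 arrays of every group.

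The genes on which the results turn are Bcl2 and Casp2, the members whose response to the deletion differed between the tissues. The 250 bases before the start that RefSeq's promoter table gives for each (GRCm38.p6) are shown because BMP signalling acts through SMAD proteins, which can bind a GC-rich site. Capitals mark GGCGCC, which reads the same on both strands. For Bcl2 the window is chr1:106714291-106714540 on the minus strand, and for Casp2 it is chr6:42264735-42264984 on the plus strand. The start given for Casp2 lies inside the annotated span of the gene, so the last part of that window overlaps the gene.
Bcl2: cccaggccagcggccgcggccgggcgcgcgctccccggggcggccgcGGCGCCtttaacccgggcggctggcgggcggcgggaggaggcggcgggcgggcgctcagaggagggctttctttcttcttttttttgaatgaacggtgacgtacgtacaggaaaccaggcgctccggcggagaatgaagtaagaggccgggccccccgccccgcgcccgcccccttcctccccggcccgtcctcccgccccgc
Casp2: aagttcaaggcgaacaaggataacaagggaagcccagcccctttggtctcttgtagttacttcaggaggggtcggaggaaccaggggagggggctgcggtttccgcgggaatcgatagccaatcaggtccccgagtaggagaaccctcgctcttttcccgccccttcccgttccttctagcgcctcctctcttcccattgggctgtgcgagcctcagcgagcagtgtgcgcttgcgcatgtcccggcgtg
The Bcl2 window holds 1 such match and has a GC content of 74.8%; the Casp2 window holds none, at 60.4%. Over the member genes found in RefSeq's promoter table, 30 genes with 44 windows, the letters occurred in 6 windows, those of Bbc3, Bcl2, Bcl2l11, Birc2 and Cycs. They occur in 9.59% of all 32851 windows of this length. The p53 half-site, RRRCWWGYYY (R is A or G, W is A or T, Y is C or T), was searched on both strands. It was matched in 8 of the 44 windows, those of Bax, Bmf, Ccng1, Cdkn1a, Gadd45a, Mdm2, Sesn1 and Trp53, and in 7.13% of all windows. The member list was drawn up to hold p53 targets, so this share is no test. A match describes the letters and says nothing of binding.

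Bcl2 (Entrez 12043, chr1:106538176-106714290 of GRCm38.p6), the founding anti-apoptotic gene, responded differently to the deletion in the 2 tissues. Its level was 9.61, 9.36 and 9.66 on the 3 WT vesicle arrays and 8.67, 8.27 and 8.82 on the KO vesicle arrays. In ectoderm it was 8.16, 8.55 and 8.60 in WT and 9.75, 9.75 and 8.86 in KO. In neither tissue did the genotypes overlap: all KO vesicle arrays lay below WT, and all KO ectoderm arrays above it. Bcl2 was 2.03-fold higher in KO than in WT ectoderm (difference 1.02, SE 0.25, adjusted p = 0.03). In vesicle the difference was -0.96 (SE 0.25, 95% interval -1.49 to -0.43), which did not pass the adjusted threshold (adjusted p = 0.072). The difference of the 2 KO effects, tested in itself, was -1.98 (SE 0.35, adjusted p = 0.01).

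The tissue order of Bcl2 was opposite in the 2 genotypes. It was 2.16-fold higher in vesicle than in ectoderm of WT embryos (1.11, SE 0.25, adjusted p = 0.011) and 1.83-fold lower in vesicle than in ectoderm of KO embryos (-0.87, SE 0.25, adjusted p = 0.047). These comparisons share arrays with those between genotypes and add no independent evidence.
The difference of the KO effects on Bcl2 passed without any 1 of the 12 arrays, and was -2.29 within slide 1 and -1.93 within slide 2, and neither of these passed (adjusted p = 0.58 and 0.12). The call in ectoderm was less firm. It was lost without WT ectoderm replicate 1 or 2 (adjusted p = 0.11 and 0.054) and without KO ectoderm replicate 1 or 2 (0.097 and 0.1). The tissue call in WT was lost without WT vesicle replicate 3 (0.051), and that in KO without KO vesicle replicate 1, 2 or 3 (0.098, 0.17 and 0.061) or KO ectoderm replicate 1 or 2 (0.16 and 0.15).

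**Figure D1:**
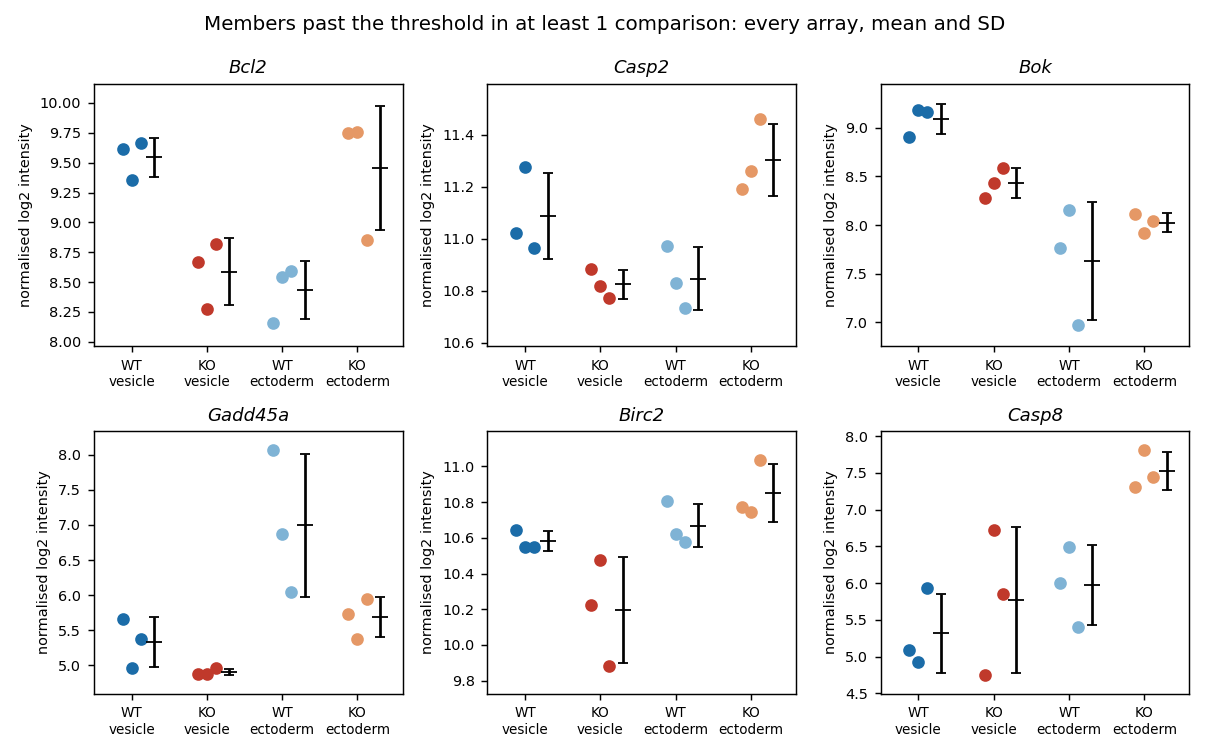
Normalised log2 intensity (vertical axis, a scale of its own in each panel) on every array of the 4 groups for the 6 members that passed in at least 1 comparison; points are arrays, bars the mean and SD (n = 3). Bcl2 lies at 8.27 to 8.82 in KO vesicle, below WT vesicle, and at 8.86 to 9.75 in KO ectoderm, above WT ectoderm.

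Bcl2 has 9 probes, of which 8 passed the filter. The difference between KO and WT vesicle was negative for 8 of 8 (-0.99 to -0.42), as was the difference of the KO effects (-1.98 to -0.08). In ectoderm 4 probes gave a positive and 4 a negative difference (-0.63 to 1.02). A further probe, at 6.89 in WT vesicle, had differences of -0.88 in vesicle and 1.02 in ectoderm, but with larger errors (SE 0.41) neither passed (adjusted p = 0.47 and 0.22). None of the 7 probes other than the one used passed in any comparison. Agreement among probes of 1 gene is not replication, since all read the same RNA.

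**Figure D2:**
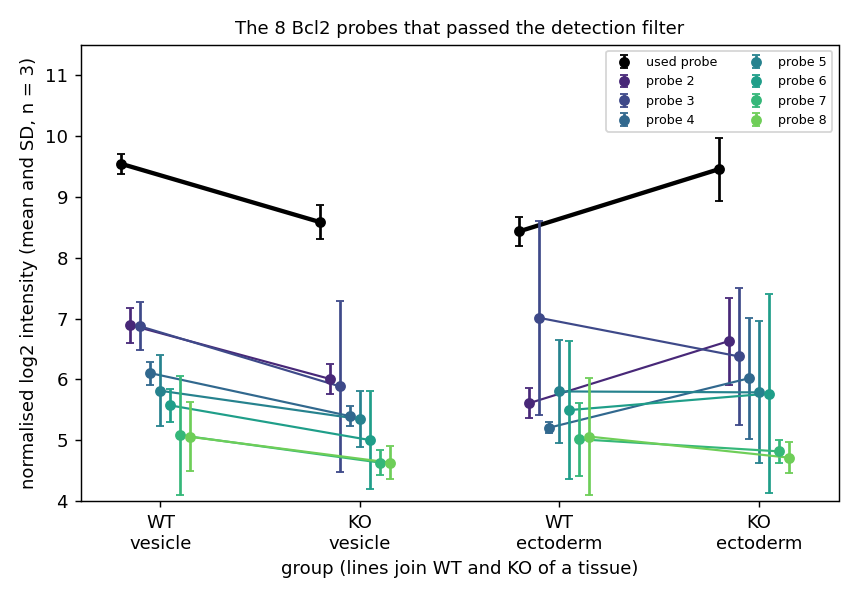
Group means of normalised log2 intensity with SD (n = 3 arrays) for the 8 Bcl2 probes that passed the detection filter; lines join WT and KO of a tissue, and the black line is the probe used. Every line falls from WT to KO vesicle, while in ectoderm 4 rise and 4 fall.

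The other anti-apoptotic members did not pass in any comparison. Mcl1, a short-lived relative of BCL2, varied little, at 9.94 ± 0.02, 9.98 ± 0.13, 10.14 ± 0.07 and 10.28 ± 0.12 (SD, n = 3) in WT vesicle, KO vesicle, WT ectoderm and KO ectoderm. Its KO effect had a 95% interval of -0.22 to 0.29 in vesicle and -0.11 to 0.40 in ectoderm. Bcl2l1, which encodes BCL-XL, varied widely within groups, from 5.59 to 8.35 on the KO vesicle arrays and from 6.10 to 8.53 on the WT ectoderm arrays. Its KO effects of -0.53 and 0.50 carried errors of 0.69, so a change of the size seen for Bcl2 was within its interval in both tissues. The 2 other probes of Bcl2l1 were also negative in vesicle, but had the opposite sign in ectoderm (down to -1.26). Neither of them passed.

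In KO against WT vesicle, 0 of the 29 members passed by limma, against 1.84% of all genes tested (1.07% higher and 0.774% lower). At an unadjusted p below 0.05 there were 6 members, against 12.2% of all genes: Bcl2, Bok, Casp2, Birc2, Mdm4 and Sesn1, all with lower values in KO. The median member difference was -0.22, with 21 of 29 below 0, beside -0.02 over all genes, of which 6212 of 11888 were below 0. The groups did not overlap for 9 members, against 21.2% of all genes. The 95% interval of the difference lay within a 2-fold change either way for 16 of the 29 members. The part of the marker genes that changed in KO vesicle, given above, in these values was not tested.

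In KO against WT ectoderm, Bcl2 and Casp2 rose and no member fell, so 2 of 29 passed, where 4.95% of all genes passed (2.56% higher, 2.39% lower). That share is near the background. At an unadjusted p below 0.05 there were 9 members, against 18.2% of all genes, and groups did not overlap for 10 members, against 19.2%. The median member difference was 0.00, beside 0.02 over all genes, and ran from -0.13 without KO ectoderm replicate 3 to 0.13 without KO ectoderm replicate 2. These ectoderm values stand beside the changes of marker genes in KO ectoderm given above, whose part in them was not tested. In dissected tissue, fewer cells of a type and less RNA per cell cannot be told apart.

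For the difference of the KO effects between the tissues, 2 of 29 members passed, Bcl2 and Casp2, both lower in vesicle relative to ectoderm, against 1.42% of all genes (0.816% higher, 0.606% lower). At an unadjusted p below 0.05 there were 6 members, against 13.1% of all genes. Besides these 2, they were Bok (-1.05, adjusted p = 0.24), Birc2 (-0.57, 0.22), Ccng1 (0.73, 0.38) and Sesn1 (-1.72, 0.18).

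**Figure D3:**
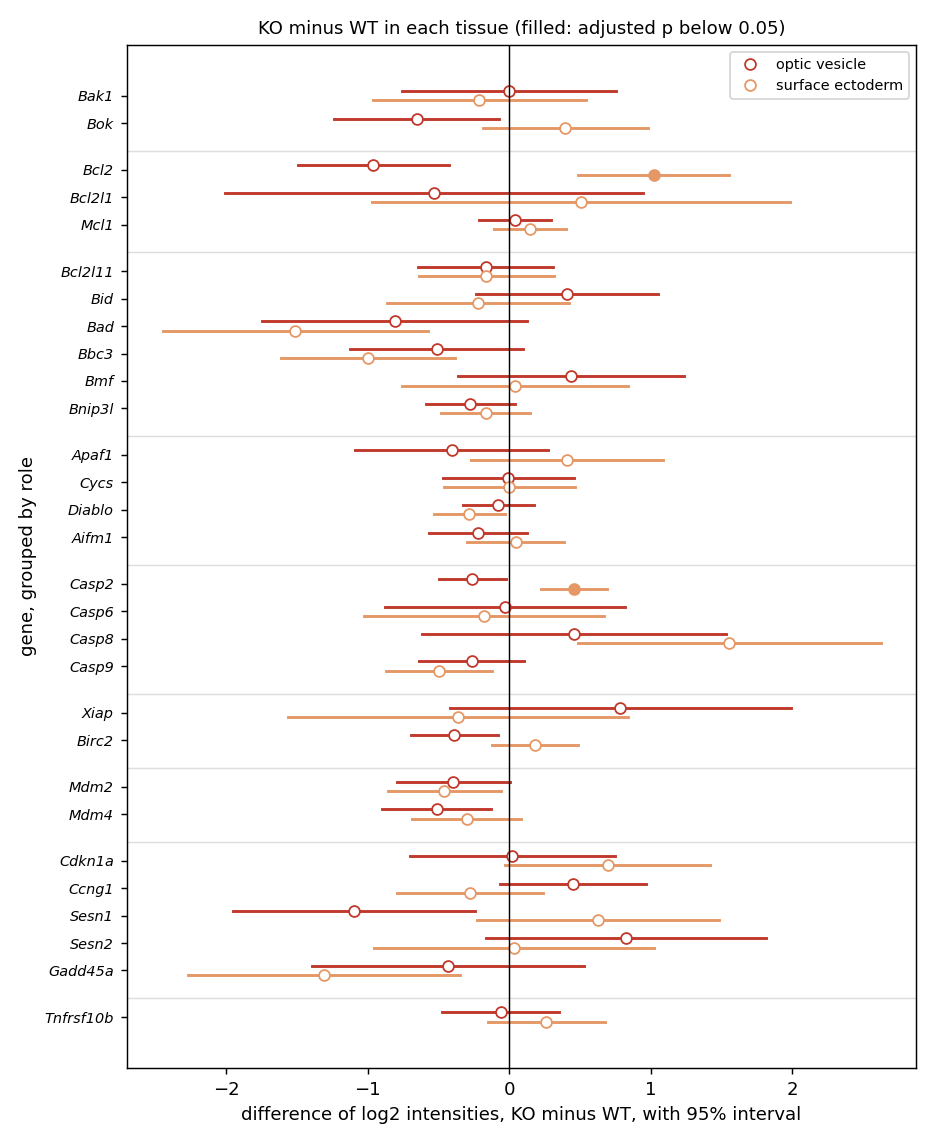
Difference of log2 intensities, KO minus WT (horizontal axis), with its 95% interval for the 29 tested members, grouped by role, in vesicle and in ectoderm; filled points passed at an adjusted p below 0.05. The filled points are Bcl2 (1.02) and Casp2 (0.46) in ectoderm.

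Casp2 (Entrez 12366, chr6:42264902-42282508) encodes an initiator caspase activated through the PIDDosome, a complex formed with the p53 target PIDD1. It was at 11.02, 11.27 and 10.96 on the WT vesicle arrays and at 10.88, 10.82 and 10.77 on the KO vesicle arrays. In ectoderm it was 10.97, 10.83 and 10.73 in WT and 11.19, 11.26 and 11.46 in KO. The arrays of the genotypes did not overlap in either tissue, with KO below WT in vesicle and above it in ectoderm. Casp2 rose 1.37-fold in KO ectoderm (0.46, SE 0.11, adjusted p = 0.028), and its difference in vesicle was -0.26 (adjusted p = 0.33). The difference of the KO effects was -0.72 (SE 0.16, adjusted p = 0.033), and in KO embryos Casp2 was lower in vesicle than in ectoderm (-0.48, SE 0.11, adjusted p = 0.014).
Its second probe, dim at 4.74 to 5.42, had the opposite sign in all 5 comparisons and did not pass (-0.68 in ectoderm, adjusted p = 0.54). The ectoderm difference was 0.42 within slide 1 and 0.53 within slide 2. Its call was lost without WT ectoderm replicate 2 or 3 (0.074 and 0.088) and without KO ectoderm replicate 2 or 3 (0.052 and 0.096). The call for the difference of the KO effects was lost without any 1 of 9 of the 12 arrays (adjusted p up to 0.095). It was kept without WT vesicle replicate 3, WT ectoderm replicate 1 or KO ectoderm replicate 1. The tissue call in KO was lost without KO vesicle replicate 3 (0.059) or KO ectoderm replicate 3 (0.061).

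Casp8 (Entrez 12370, chr1:58795233-58847503), the initiator caspase of the death receptors, was highest in KO ectoderm. It was at 5.10, 4.92 and 5.93 in WT vesicle, 4.75, 6.73 and 5.85 in KO vesicle, 6.01, 6.49 and 5.41 in WT ectoderm, and 7.31, 7.81 and 7.44 in KO ectoderm. All KO ectoderm arrays lay above every other array. In KO embryos it was 3.36-fold lower in vesicle than in ectoderm (-1.75, SE 0.50, adjusted p = 0.047); with no background correction the difference was -0.93 (adjusted p = 0.02). The call was lost with median scaling (adjusted p = 0.12), with no filter on dim probes (0.099) and with the arrays compared alone (0.1). The difference of 1.55 between KO and WT ectoderm did not pass (adjusted p = 0.098), and with no background correction it was 0.88 and passed (adjusted p = 0.036). A second probe was also lower in KO vesicle than in KO ectoderm, with means of 4.59, below the lowest detected signal of those arrays, and 6.08 (adjusted p = 0.011). The tissue difference in KO was -0.65 within slide 1 and -2.51 within slide 2, and with slide as a block its adjusted p was 0.082. Its call was lost without KO vesicle replicate 1 or 3 (0.2 and 0.1) and without KO ectoderm replicate 1, 2 or 3 (0.076, 0.12 and 0.089).

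Casp9, activated on the apoptosome, had higher values in WT ectoderm (9.56, 9.83 and 9.61) than in KO ectoderm (9.01, 9.23 and 9.28), with no overlap. The difference of -0.50 did not pass (adjusted p = 0.13), nor did that between WT vesicle and WT ectoderm (-0.57, adjusted p = 0.059), though the latter passed with array weights (adjusted p = 0.041). Casp6, an effector caspase, had KO effects of -0.03 and -0.18, each with an error of 0.40.

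Of the pore-forming members, Bok differed between the tissues of WT embryos. Bok (Entrez 51800, chr1:93685575-93695770) resembles BAX and BAK and is not restrained by BCL2 in the way they are. It was at 8.91, 9.19 and 9.17 in WT vesicle and at 7.76, 8.16 and 6.97 in WT ectoderm, so that the WT tissues did not overlap. KO vesicle gave 8.28, 8.43 and 8.59 and KO ectoderm 8.11, 7.92 and 8.05. Bok was 2.75-fold higher in WT vesicle than in WT ectoderm (1.46, SE 0.27, adjusted p = 0.0032), and 0.95 and 2.21 higher within slides 1 and 2. The tissue difference in KO, 0.41, did not pass (adjusted p = 0.46), and the change of the tissue difference between genotypes did not pass either (adjusted p = 0.24). The KO arrays of the vesicle lay below all WT vesicle arrays, with a difference of -0.65 that did not pass (adjusted p = 0.33). Bak1, the other measured effector, was level across groups, at 5.54 to 5.76, with KO effects of 0.00 and -0.21 (SE 0.35).

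No BH3-only gene passed in any comparison. Bad, whose protein binds BCL2 and BCL-XL, was at 5.99, 7.02 and 7.34 in WT ectoderm and at 5.18, 5.13 and 5.49 in KO ectoderm, with no overlap. The difference was -1.51 (SE 0.44, adjusted p = 0.064); it passed without WT ectoderm replicate 1 (adjusted p = 0.03). In vesicle Bad was at 7.55, 6.74 and 7.38 in WT and 6.87, 5.83 and 6.54 in KO, which overlap.
Bbc3, the p53 target PUMA, was at 10.18, 9.88 and 10.18 in WT ectoderm and at 8.58, 9.94 and 8.73 in KO ectoderm. KO replicate 2 lay within the WT range, while the other 2 lay more than 1 log2 unit below it. The difference was -1.0 (SE 0.29, adjusted p = 0.062), and without KO ectoderm replicate 2 it was -1.43 (adjusted p = 0.0011). Its 2 dimmer probes gave 0.16 and 0.03 in ectoderm. In vesicle the Bbc3 values were 9.89, 10.17 and 10.07 in WT and 9.76, 9.70 and 9.12 in KO, with a difference of -0.51 (adjusted p = 0.53).
Bcl2l11 (BIM), Bid and the mitophagy receptor gene Bnip3l had KO effects between -0.28 and 0.41 in the 2 tissues on the probes used. Over its 4 probes Bcl2l11 ran from -0.62 to 0.16 in ectoderm. The other probe of Bid gave -0.40 in vesicle, against 0.41 on the probe used. Bmf was detected on 7 of 12 arrays and on none of the WT vesicle. By group means it was at least 1.46-fold higher in WT ectoderm than in WT vesicle, a difference that did not pass (adjusted p = 0.24). For such a bound the dim group was set at the higher of its own signal and the lowest detected signal of each array.

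The mitochondrial factors did not pass either. Apaf1, the scaffold of the apoptosome, had KO effects of -0.41 in vesicle and 0.41 in ectoderm (SE 0.32). It was lower in KO vesicle than in KO ectoderm by an amount that did not pass (-0.84, adjusted p = 0.14). Cycs, which encodes cytochrome c, had KO effects of -0.01 and 0.00 (SE 0.22). Its 2 other probes differed from this, at -1.85 and -0.54 in vesicle and 0.33 and -0.31 in ectoderm, and did not pass. Diablo, which encodes an antagonist of IAP proteins, was at 10.62, 10.67 and 10.73 in WT ectoderm and 10.53, 10.42 and 10.22 in KO ectoderm (difference -0.28, adjusted p = 0.21). Aifm1, which encodes a flavoprotein of the intermembrane space, had KO effects of -0.22 and 0.04.

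Birc2 (Entrez 11797, chr9:7818226-7837131) encodes cIAP1, a ubiquitin ligase of TNF receptor complexes. It was at 10.65, 10.55 and 10.55 in WT vesicle, 10.22, 10.48 and 9.88 in KO vesicle, 10.81, 10.62 and 10.58 in WT ectoderm, and 10.77, 10.74 and 11.04 in KO ectoderm. The KO vesicle arrays lay below all others. In KO embryos Birc2 was 1.58-fold lower in vesicle than in ectoderm (-0.66, SE 0.14, adjusted p = 0.0098). Its 3 other probes had the same sign (-0.70 to -0.35 over all 4). The difference was -0.43 within slide 1 and -0.69 within slide 2. KO against WT vesicle gave -0.39 (adjusted p = 0.26). Xiap, which inhibits caspases directly, varied by more than 1 log2 unit among arrays of the ectoderm groups and did not pass (KO effects of 0.79 and -0.36, SE 0.56).

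Both measured regulators of p53 had lower values in KO than in WT in each tissue on the probe used, without passing. Over all kept probes the signs were mixed: Mdm4 was higher in KO on 2 of 5 in vesicle and 1 of 5 in ectoderm, and Mdm2 on 1 of 3 in each. Mdm4, an inhibitor of p53, was at 9.15, 9.33 and 9.16 in WT vesicle and 8.71, 8.94 and 8.44 in KO vesicle (-0.51, adjusted p = 0.23). In ectoderm it was at 8.75, 8.93 and 8.76 in WT and at 8.47, 8.52 and 8.55 in KO (-0.30, adjusted p = 0.43). The genotypes did not overlap in either tissue. Mdm2, the ubiquitin ligase of p53 and itself a p53 target, gave -0.40 in vesicle (adjusted p = 0.41) and -0.46 in ectoderm (adjusted p = 0.2). Its ectoderm values were 11.15, 10.79 and 10.75 in WT and 10.26, 10.70 and 10.37 in KO.

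Among the p53 targets of arrest, repair and stress, Gadd45a differed between the WT tissues. Gadd45a (Entrez 13197, chr6:67035096-67037407) takes part in growth arrest and DNA repair. It was at 5.66, 4.96 and 5.38 in WT vesicle and at 8.07, 6.87 and 6.05 in WT ectoderm, so the widest spread was within WT ectoderm. KO vesicle gave 4.88, 4.87 and 4.96 and KO ectoderm 5.73, 5.38 and 5.95. It was 3.17-fold lower in WT vesicle than in WT ectoderm (-1.67, SE 0.45, adjusted p = 0.033). With no background correction the difference was -0.84 (adjusted p = 0.045), and with no filter on dim probes the call was lost (adjusted p = 0.093), as it was with the arrays compared alone (0.095). The KO effect in ectoderm, -1.31, did not pass (adjusted p = 0.12) and passed without WT ectoderm replicate 3 (0.032). The tissue difference was -1.81 within slide 1 and -0.88 within slide 2, and with slide as a block its adjusted p was 0.053. Its call was lost without WT vesicle replicate 1, 2 or 3 (0.056, 0.14 and 0.087) and without WT ectoderm replicate 1 or 2 (0.11 and 0.061). A second probe gave -1.21 (adjusted p = 0.28).
Sesn1, a sestrin that restrains mTORC1 signalling, was at 8.09, 7.91 and 7.92 in WT vesicle, 7.62, 5.94 and 7.07 in KO vesicle, 6.68, 7.01 and 6.36 in WT ectoderm, and 7.62, 7.0 and 7.31 in KO ectoderm. Its KO effects were -1.10 in vesicle (adjusted p = 0.25) and 0.63 in ectoderm (0.46), a pattern of signs like that of Bcl2, and its second probe gave -0.47 and 0.54. The difference between WT vesicle and WT ectoderm was 1.29 (adjusted p = 0.063); it passed with no background correction (0.046) and with the arrays compared alone (0.032). Its paralogue Sesn2 had KO effects of 0.82 and 0.03 (SE 0.46). Ccng1, which encodes cyclin G1, had KO effects of 0.45 and -0.28 (SE 0.24).
Cdkn1a, which encodes the cell cycle inhibitor p21 and is a standard readout of p53, was detected on 3 of 12 arrays: 1 of KO vesicle and 2 of KO ectoderm. KO ectoderm replicate 2 stood at 6.29, and the other arrays of the group were at 4.80 and 4.61. Cdkn1a therefore passed the detection filter through KO arrays only. By group means it was at least 1.39-fold higher in KO than in WT ectoderm, a bound that rests on KO ectoderm replicate 2. The difference did not pass (adjusted p = 0.3). Tnfrsf10b, the mouse receptor for the death ligand TRAIL, had KO effects of -0.06 and 0.26 (SE 0.19) on the probe used. Its 4 other probes all had the opposite sign in ectoderm (down to -1.23). In vesicle 1 of the 4 had the same sign, with values over all 5 of -0.25 to 0.77. None of the 4 passed.

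**Figure D4:**
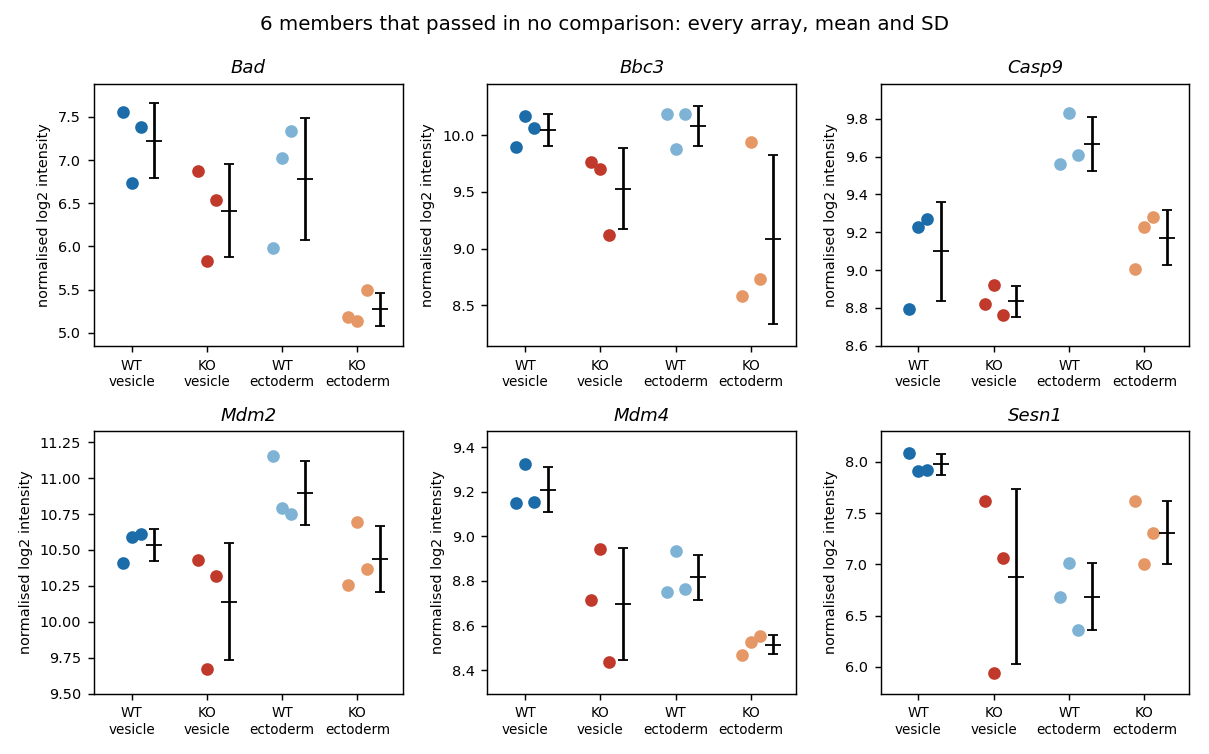
Normalised log2 intensity (vertical axis, a scale of its own in each panel) on every array of the 4 groups for 6 members described above that passed in no comparison; points are arrays, bars the mean and SD (n = 3). Bad, Casp9, Mdm2 and Mdm4 do not overlap between WT and KO ectoderm, while 1 KO ectoderm array of Bbc3 lies among the WT arrays at 9.94.

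Between the tissues, 3 of 29 members passed in WT embryos: Bok and Bcl2 were higher in vesicle and Gadd45a lower. Over all genes 8.36% passed (4.06% higher, 4.30% lower). At an unadjusted p below 0.05 there were 10 members, against 21.0% of all genes, and groups did not overlap for 13, against 27.7%. The median member difference was -0.08, with 19 of 29 below 0, beside 0.05 over all genes; with median scaling in place of quantile normalisation it was 0.05, with 12 below 0, beside 0.13 over all genes. Without WT ectoderm replicate 1 the median was -0.04.
In KO embryos 4 of 29 members passed, and Birc2, Casp2, Bcl2 and Casp8 were lower in vesicle. Over all genes 7.65% passed (3.50% higher, 4.16% lower). At an unadjusted p below 0.05 there were 8 members, against 20.1% of all genes, and groups did not overlap for 11, against 23.1%. The median member difference was -0.31, with 17 of 29 below 0, beside 0.01 over all genes. It rested in part on single arrays: it was -0.06, with 15 below 0, without KO vesicle replicate 2, and -0.17 without KO ectoderm replicate 2. Bcl2 was the member called in both genotypes, with opposite signs.

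**Figure D5:**
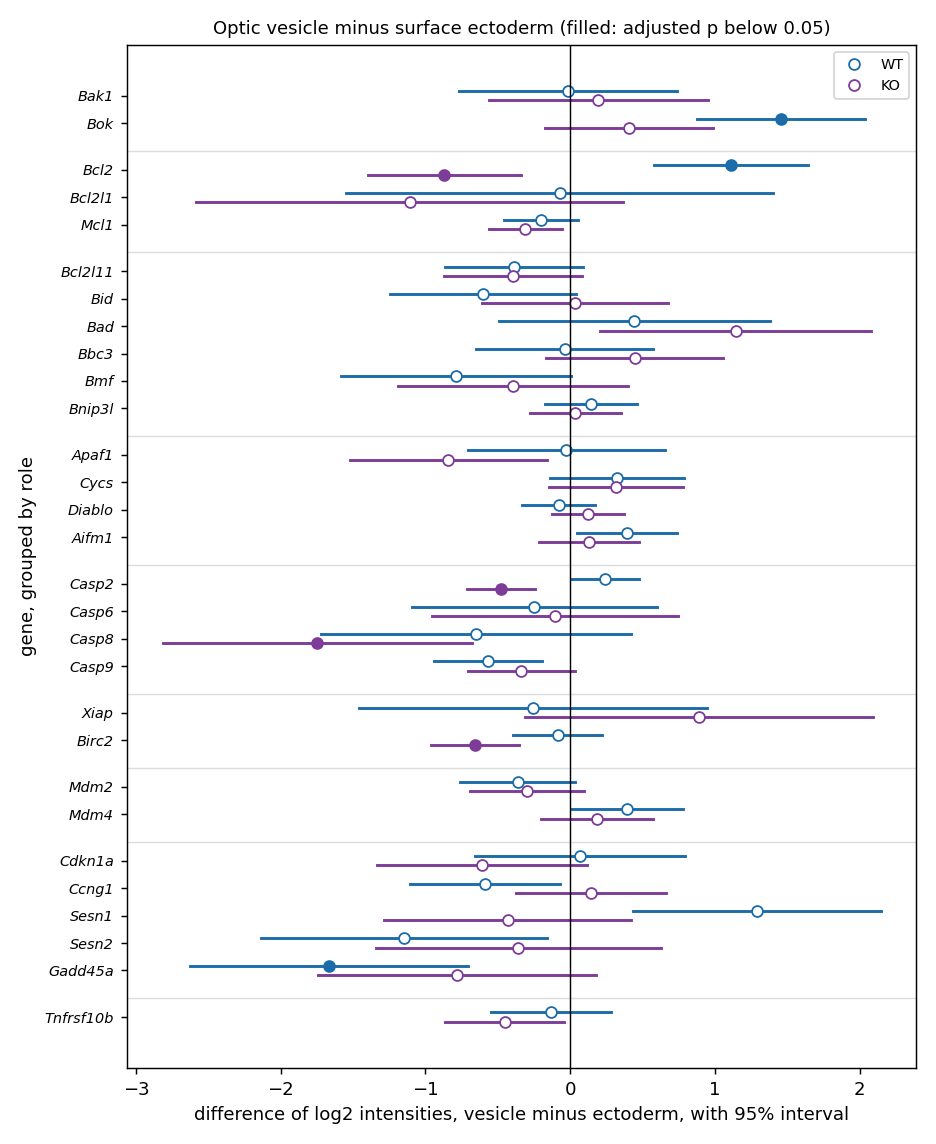
Difference of log2 intensities, vesicle minus ectoderm (horizontal axis), with its 95% interval for the 29 tested members, grouped by role, in WT and in KO embryos; filled points passed at an adjusted p below 0.05. Bcl2 lies at 1.11 in WT and at -0.87 in KO.

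Of 60 further genes of the same pathways, 47 were tested. In vesicle 0 of 47 passed between genotypes by limma, with 6 at an unadjusted p below 0.05, against 1.84% and 12.2% of all genes. In ectoderm 2 of 47 (4.26%) rose in KO and none fell, against 4.95% of all genes either way. Perp, a p53 and p63 target that holds epithelia together and is also one of the surface ectoderm markers used here, was at 5.86 in WT and 9.13 in KO ectoderm (3.27, SE 0.59, adjusted p = 0.0042). Plk2, a stress-induced kinase gene and p53 target, was at 6.44 and 8.21 (1.78, SE 0.39, adjusted p = 0.017). Its KO effect in vesicle was -1.31 (adjusted p = 0.13), and the difference of the KO effects, -3.09, was the only 1 of 47 to pass (SE 0.55, adjusted p = 0.011), against 1.42% of all genes. Between the WT tissues 1 of 47 passed, against 8.36% of all genes: Plk3, another polo-like kinase gene, was higher in vesicle, at least 1.85-fold (adjusted p = 0.047), and not detected in WT ectoderm. Between the KO tissues 6 of 47 passed, against 7.65% of all genes: 2 were higher in vesicle, Plk3 and the nuclease gene Dffb, and 4 were lower, Bcl2l13, Perp, Plk2 and Rchy1, which encodes a ubiquitin ligase of p53.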

How the data were processed

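Per the file headers, the deposited table gives, per probe and array, the average intensity of the beads (linear), the standard error over beads, a detection p-value and the number of beads (median 42). The labels name GenomeStudio, with no version, per the submitters' processing notes. The intensity values are not background-subtracted or normalised between arrays. The authors also deposited processed intensity values with nearly equal column medians (9.40 to 9.42), whose options are not stated and which served as an alternative.

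Here, neqc of limma 3.58.1 (R 4.3.3) corrected background with controls inferred from detection p, added an offset of 16, quantile normalised and took log2. In the platform annotation 34885 of 45281 probes have 1 gene symbol, 18 several and 10378 none; 34807 had an Entrez ID in RefSeq's GRCm38.p6 table. Of the probes, 24978 passed the filter. Group differences were fitted over all 12 arrays with lmFit and eBayes (trend), with Benjamini-Hochberg adjustment over 11888 genes and a two-sided threshold of 0.05. Values for other probes of a gene came from a second fit, of all probes with 1 gene symbol that passed the filter. Their adjusted p-values are over that larger set and are not on the same footing as those of the probes used. The fit over genes was tested on simulated data. The precision is limited by 3 arrays per group, and the median half-width of a member's 95% interval was 0.58 (0.82 for the difference of KO effects). Members, lists and tests were chosen with earlier results of these data known; all 33 listed members were to be named. Further pathway genes are named where they passed.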

Additional observations from a re-analysis of the deposited data

Results flagged for a closer look

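The KO effect differed between vesicle and ectoderm for 3 of the genes described here, by the limma test of the difference itself. For Bcl2 the difference of the KO effects was -1.98 (adjusted p = 0.01), with all 3 KO arrays below WT in vesicle and above it in ectoderm. That is the probe used, the most extreme of 8 (-1.98 to -0.08). Of the 8 probes 4 were lower in KO ectoderm, and none of the other 7 passed. For Casp2 it was -0.72 (adjusted p = 0.033), and its dimmer probe had the opposite sign (0.87, adjusted p = 0.68). For Plk2, of the further pathway genes, it was -3.09 (adjusted p = 0.011). Other probes, alternative settings and the leaving out of single arrays were examined for members only, and so not for Plk2. Groups of 3 arrays were too small for a test of single outlying arrays.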

How the results depend on the processing

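Counts of members that passed depended on the processing, while none of the calls changed sign under any of the alternatives tried. Each alternative read 1 bright probe per gene, so agreement between probes was not part of them. Signs did differ between probes for Casp2, whose second probe was opposite. For Bcl2, 4 of 8 probes were negative between genotypes in ectoderm and 2 of 8 between WT tissues. In vesicle between genotypes the count was 0, and 1 (Bcl2) with array weights (adjusted p = 0.021) or with the arrays of the groups compared alone (0.026). In ectoderm between genotypes it was 2, and 0 with median scaling, with no filter on dim probes, within slide 1, within slide 2, with array weights and with the arrays compared alone; with a stricter filter it was 4, as Bad and Bbc3 passed (0.048 and 0.047). Between WT tissues it was 3, and 0 within slide 1 and 1 within slide 2. Between KO tissues it was 4, and 0 with median scaling and within slide 1, 1 within slide 2 (Cdkn1a, so that none of the 4 passed there), and 2 with no filter, with all kept probes in 1 fit, with array weights and with the arrays compared alone. For the difference of the KO effects it was 2, and 1 with median scaling or no filter and 0 within slide 1 or slide 2. Leaving out each array in turn gave 0 to 0, 0 to 2, 1 to 3, 1 to 4 and 1 to 2 members in the same order. Over all genes the counts of 219, 588, 994, 910 and 169 ranged over these settings from 0 to 415, 19 to 603, 76 to 1147, 58 to 938 and 0 to 191. Slide as a block ended the calls of Gadd45a and Casp8 alone among the members.

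Replicate numbers gave no sign of pairing: residuals of arrays that share a number correlated between -0.04 and 0.02. With the replicate number as a block, 0 members passed in ectoderm between genotypes (Bcl2 0.058, Casp2 0.081), 2 between KO tissues, 1 for the difference of the KO effects and, as without it, 0 in vesicle and 3 between WT tissues. Dim probes limit what can be read: Cdkn1a was detected on no WT array, and Bmf on no WT vesicle array.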
